A study of Mus musculus with 8 samples.

Results

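The proteasome genes of sorted neutrophils are described here at 2 times of day, in the inflamed spinal cord of mice with experimental autoimmune encephalomyelitis (EAE), a model of multiple sclerosis. All protein-coding genes with symbols Psma, Psmb, Psmc, Psmd, Psme, Psmf or Psmg followed by a number were taken, after the Ensembl gene identifiers had been given GENCODE symbols. That rule finds 49 genes in the annotation, and 48 of the 23369 genes in the count table. Psmb11, the catalytic subunit of the thymus, was not analysed here. After a filter on low counts 12610 genes were tested, 47 of them proteasome genes. The one left out is Psma8, a core subunit known from the testis, with 0 to 59 reads per library.

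All mice were C57BL/6N and all had EAE; no healthy mouse, other tissue or other genotype was compared. Cells positive for CD45, CD11b and Ly6G were sorted from the spinal cord at zeitgeber time (ZT) 1, which is 1 hour after lights on, or at ZT13, 4 libraries each. Full-length cDNA was amplified from little RNA with a SMART-Seq kit, and the libraries carry 1 batch label. For the ages, the immunisation and the day of disease, the sources used here give no detail.

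The proteasome is the protease that degrades proteins tagged with ubiquitin. Its barrel-shaped core particle is built from outer rings of alpha subunits, which gate the entrance, and inner rings of beta subunits. Psmb5, Psmb6 and Psmb7 carry the active sites of the constitutive core. Interferon-gamma is known to induce Psmb8, Psmb9 and Psmb10, which replace them in newly built cores and so form the immunoproteasome. It also induces Psme1 and Psme2, the subunits of the PA28 activator, and the altered cores cut peptides suited to MHC class I molecules. White blood cells are known to carry immunoproteasome without any inflammation. The regulatory particle, made of Psmc ATPases and Psmd non-ATPases, binds ubiquitin chains, unfolds the protein and feeds it into the core.

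The libraries held 46152067 to 67873023 counted reads. Genes with any count numbered 15760 to 17701 in the ZT1 libraries and 13945 to 15751 in the ZT13 libraries, without overlap. The part of this difference in the proteasome values was not tested. Of the genes behind the sort, Itgam (CD11b) was at 482 ± 16.8 CPM (reads per 1e+06 counted, with library sizes scaled by TMM) at ZT1 and 488 ± 14.9 at ZT13, Ptprc (CD45) at 1816 ± 144 and 1602 ± 56.0, and Ly6g at 369 ± 108 and 485 ± 24.2 (mean ± SD, n = 4 here and below). Neutrophil markers summed to 137100 to 176700 CPM at ZT1 and 180300 to 229200 at ZT13, without overlap. Log2 fold changes were positive for 11 of 12, where 47.7% of all genes were positive. Very abundant transcripts weigh most in this sum: mean CPM at ZT1 and ZT13 were 25200 and 39080 for S100a8, 27590 and 41790 for S100a9, and 35360 and 44620 for Ngp. The negative one was Csf3r, at 1904 ± 230 CPM at ZT1 and 1559 ± 130 at ZT13. Taken singly, only 1 of the 12, Lcn2, was higher at ZT13 without overlap, where 2.66% of all genes were. Markers of other cells were read in the same way. Those of microglia and macrophages summed to 410.5 to 765.6 CPM at ZT1 and 336.0 to 726.6 at ZT13, those of monocytes and dendritic cells to 1388 to 2049 and 1595 to 2133, and those of neural and endothelial cells to 118 to 167 and 114 to 208. The most abundant genes of the monocyte list, Ly6c2 and Ccr2, went opposite ways within its sum. Ly6c2 was at 835 ± 160 CPM at ZT1 and 1166 ± 90.6 at ZT13, without overlap. Ccr2 was at 506 ± 50.0 CPM at ZT1 and 382 ± 91.2 at ZT13. Their adjusted p were 0.403 and 0.510 by edgeR, and 0.0395 and 0.278 by DESeq2. T and NK cell markers summed to 8.98 to 19.4 CPM at ZT1 and 8.85 to 22.2 at ZT13. B cell markers summed to 1.70 to 2.28 CPM at ZT1 and 2.77 to 5.28 at ZT13, higher without overlap, and their part in the proteasome values was not tested. No marker in the table was at 0 in every library, while 7 of 9 T and NK cell, 4 of 6 neural and endothelial, and 2 each of the microglia, monocyte and B cell markers were at 0 in at least 1. In sorted bulk cells, fewer cells of a type and less RNA per cell cannot be told apart.

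No proteasome gene passed the test between ZT13 and ZT1, and the values leaned towards ZT13. By edgeR's quasi-likelihood test with Benjamini-Hochberg adjustment over all genes, 0 of 47 members had an adjusted p under 0.05, beside 0 of 12610 genes (0.0%). The members' adjusted p ran from 0.475 (Psmb1) to 0.989 (Psmd3). DESeq2 called 0 members, where it called 0.94% of all genes (0.343% higher at ZT13), and 0 members on the whole table, where it called 1.7%. On the tested genes, the smallest adjusted p it gave a member was 0.149, for Psmb1. At an unadjusted p under 0.05, edgeR counted 11 members higher at ZT13, where 4.35% of all genes were, and 1 lower, where 4.85% were.

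The log2 fold change of ZT13 over ZT1 was positive for 42 of 47 members, where it was positive for 47.7% of all genes tested. The members' median was 0.21 and that of all genes -0.02. The sizes are small: the 95% interval excluded a 2-fold difference in either direction for 45 of the 47. The libraries of the groups did not overlap for 2 members, Psma2 and Psme4, both higher at ZT13 (2.66% of all genes), and for 0 members lower (3.0%). The count of 11 changed when a library was left out, and the share of all genes changed too. The count was 20 without ZT1 replicate 3, where 6.18% of all genes were higher, and 4 without ZT1 replicate 4 (2.23%). It was 5 without ZT1 replicate 1 (2.25%), 6 without ZT13 replicate 2 (3.72%), and 7 without ZT1 replicate 2 (2.59%) or ZT13 replicate 4 (3.05%).

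**Figure D1:**
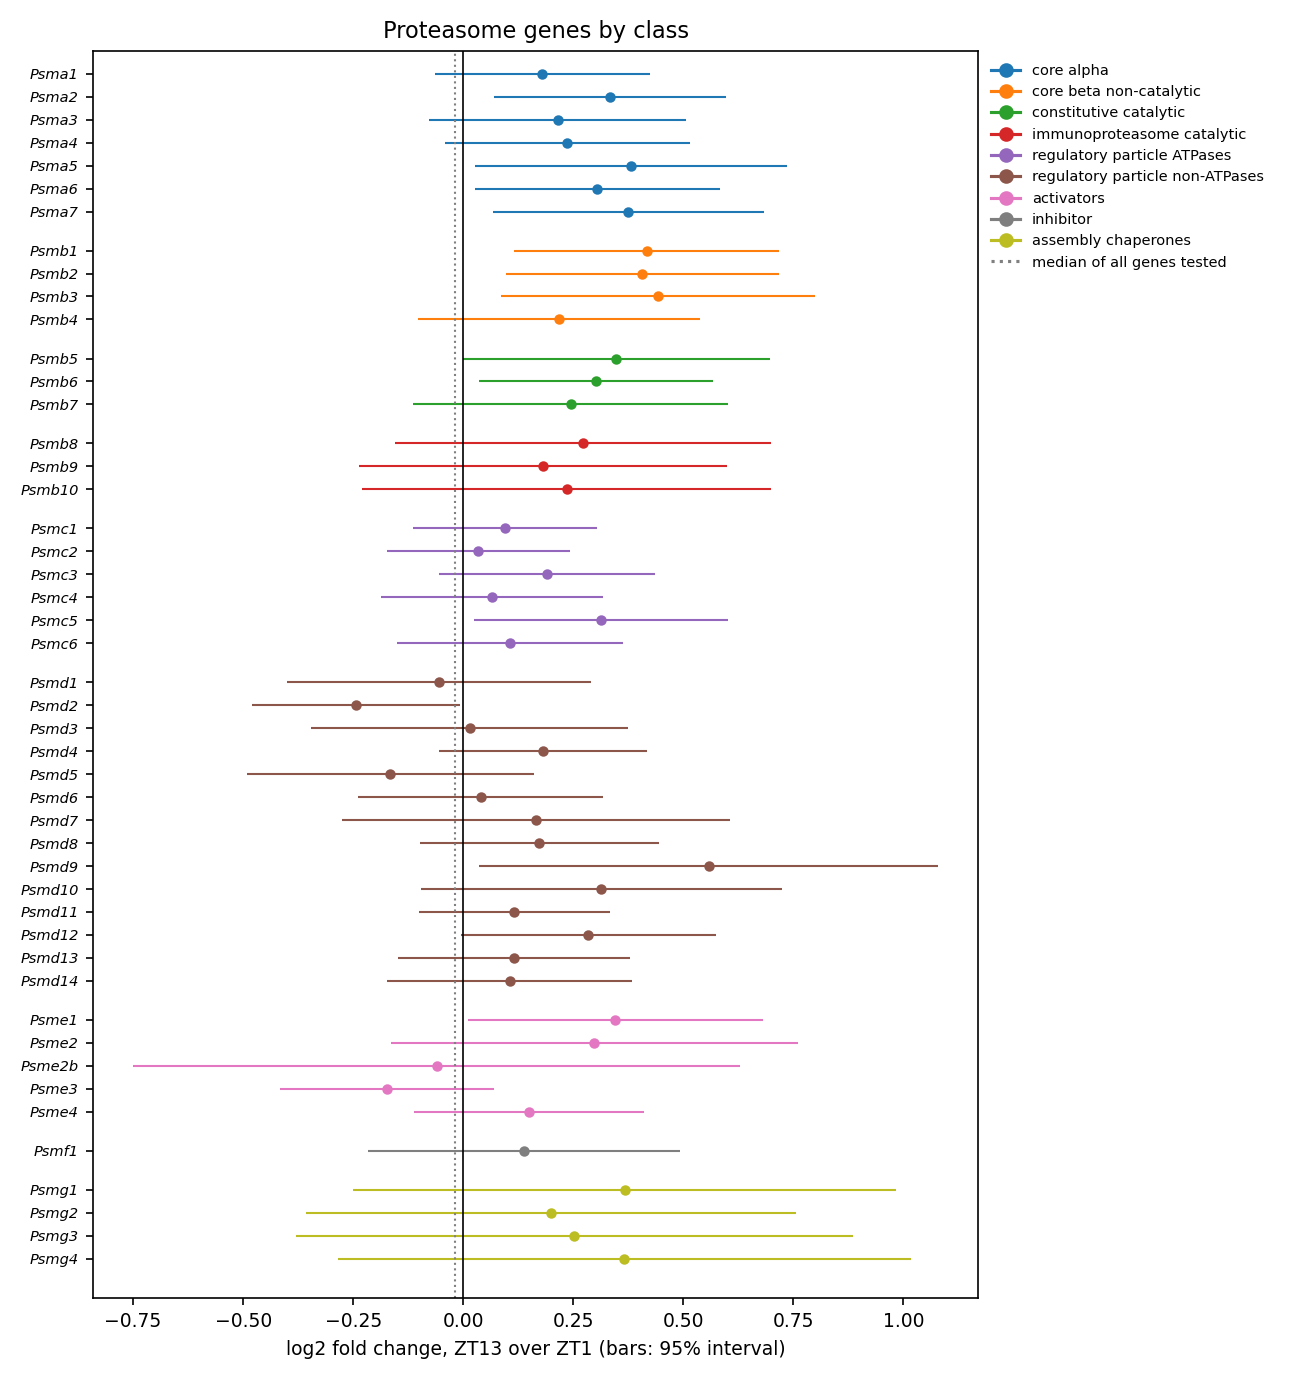
Log2 fold change of ZT13 over ZT1 (x axis) of the 47 tested proteasome genes, grouped by their place in the complex; points are edgeR estimates and bars their 95% intervals. The core subunits all lie to the right of 0, with medians of 0.30 for the alpha and 0.41 for the non-catalytic beta genes, and the regulatory particle lies nearer 0.

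The alpha genes were all higher at ZT13 in their means, by 1.24-fold in the median. Their log2 fold changes ran from 0.18 (Psma1) to 0.38 (Psma5), with a median of 0.30. At an unadjusted p under 0.05 by edgeR, 4 of 7 were higher, where 4.35% of all genes were. Psma2, which encodes a subunit of the outer ring, stood at 110, 124, 150 and 104 CPM in ZT1 replicates 1 to 4 and at 154, 153, 153 and 154 CPM in ZT13 replicates 1 to 4. Every ZT13 library lay above every ZT1 library, and the ZT13 libraries were close to equal. The log2 fold change of Psma2 was 0.33 ± 0.12 (SE), with an edgeR adjusted p of 0.491. Psma7, another ring subunit, was at 115, 152, 182 and 144 CPM at ZT1 and 176, 198, 181 and 215 CPM at ZT13, where ZT1 replicate 3 reached into the ZT13 range. Its log2 fold change was 0.37 ± 0.14, adjusted p 0.494.

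The non-catalytic beta genes Psmb1 to Psmb4 complete the inner ring without an active site. Here stood the largest class median, 0.41, and 3 of 4 were higher at an unadjusted p under 0.05 (4.35% of all genes). Psmb1 was at 78.2, 84.7, 110 and 74.7 CPM at ZT1 and 123, 122, 104 and 115 CPM at ZT13; its log2 fold change was 0.42 ± 0.13, adjusted p 0.475. Psmb2 was at 83.5, 83.6, 113 and 72.4 CPM and 115, 106, 119 and 127 CPM, giving 0.41 ± 0.14 and an adjusted p of 0.491. In both genes 3 ZT1 libraries lay below every ZT13 library, and ZT1 replicate 3 lay among them. Psmb3 had the largest log2 fold change of the class, 0.44 ± 0.16, and Psmb4 the smallest, 0.22 ± 0.14.

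The constitutive catalytic genes gave a median of 0.30. Psmb5, which carries the chymotrypsin-like site, stood at 30.2, 32.5, 47.3 and 34.2 CPM at ZT1 and 43.7, 49.3, 46.9 and 43.5 CPM at ZT13. Psmb6, with the caspase-like site, was at 79.4, 74.7, 101 and 75.6 CPM, then 95.6, 101, 112 and 98.6 CPM. Psmb7, with the trypsin-like site, was at 28.0, 29.8, 35.0 and 23.6 CPM, then 39.2, 28.7, 36.3 and 33.6 CPM. In each of these genes ZT1 replicate 3 was the highest ZT1 library and overlapped with ZT13. Log2 fold changes were 0.35 ± 0.16 (Psmb5), 0.30 ± 0.12 (Psmb6) and 0.24 ± 0.16 (Psmb7), with adjusted p of 0.542, 0.511 and 0.714.

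The immunoproteasome genes were expressed at both times, and their differences were within the spread between mice. Psmb8, the inducible counterpart of Psmb5, stood at 86.7, 114, 162 and 87.3 CPM at ZT1 and 120, 137, 141 and 145 CPM at ZT13. Psmb9, which replaces Psmb6, was at 63.1, 89.1, 119 and 66.1 CPM, then 92.9, 99.5, 95.2 and 94.7 CPM. Psmb10, which replaces Psmb7, was at 43.6, 51.9, 72.3 and 36.8 CPM, then 54.3, 69.5, 50.5 and 66.4 CPM. For all 3 genes the highest of all 8 libraries was ZT1 replicate 3 and the lowest were ZT1 replicates 1 and 4, so the ZT13 libraries fell inside the ZT1 range. Log2 fold changes were 0.27 ± 0.19 (Psmb8), 0.18 ± 0.19 (Psmb9) and 0.23 ± 0.21 (Psmb10), with adjusted p of 0.731, 0.836 and 0.802. None had an unadjusted p under 0.05, and their intervals exclude a doubling: the upper bounds of the fold were 1.62, 1.51 and 1.62. The class median of 0.23 was 0.45 without ZT1 replicate 3 and 0.11 without ZT1 replicate 4.

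**Figure D2:**
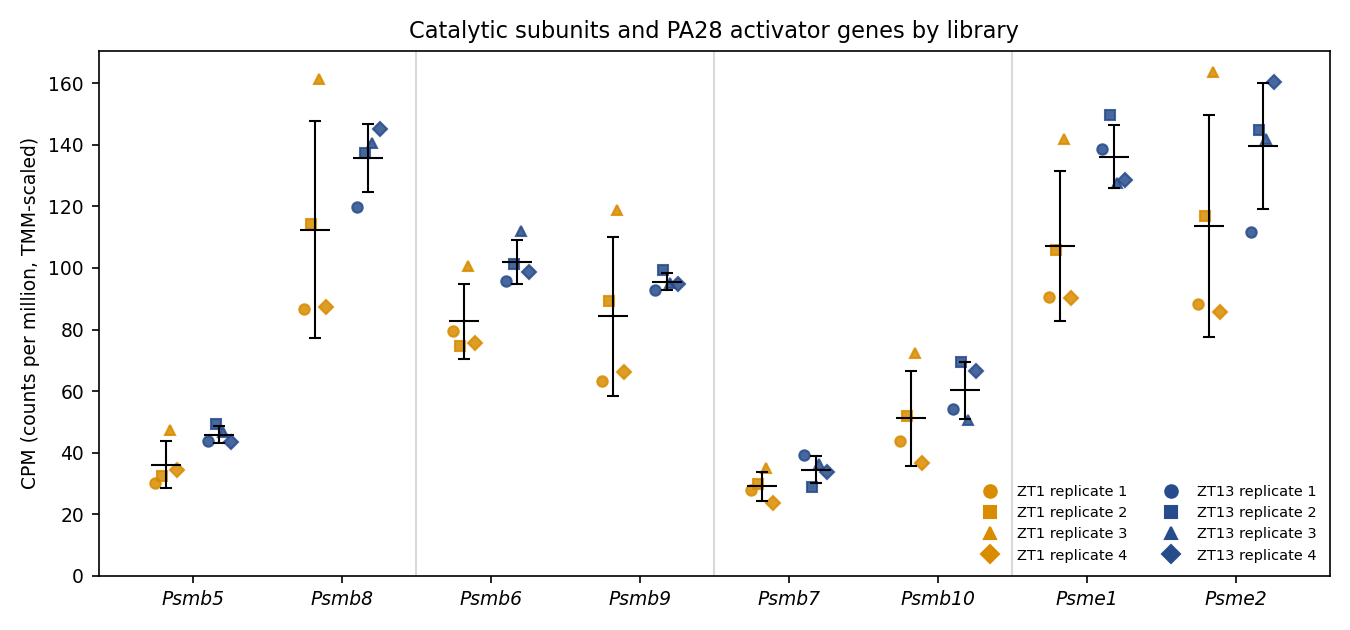
CPM of the constitutive catalytic genes, their immunoproteasome counterparts and the PA28 activator genes in each library (points), with the mean and SD of each group; the y axes start at 0. The ZT1 libraries spread more widely than the ZT13 libraries for Psmb8 and Psmb9, with ZT1 replicate 3 highest, and no gene shown separates the groups.

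PA28 caps the core at the end opposite to, or in place of, the regulatory particle. Psme1 was at 90.6, 106, 142 and 90.3 CPM at ZT1 and 139, 150, 128 and 129 CPM at ZT13, giving a log2 fold change of 0.35 ± 0.15 and an adjusted p of 0.531. Psme2 was at 88.4, 117, 164 and 85.8 CPM, then 112, 145, 142 and 160 CPM, with 0.30 ± 0.21 and 0.727. ZT1 replicate 3 was again the highest ZT1 library in both. Over the 5 inducible genes (Psmb8, Psmb9, Psmb10, Psme1, Psme2) the median log2 fold change was 0.27. It became 0.50 without ZT1 replicate 3, 0.16 without ZT1 replicate 1 and 0.17 without ZT1 replicate 4.

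The promoter windows of inducible genes are shown because these genes are the ones known to answer to interferon. Each runs from 250 bases before to 50 bases after the annotated start (RefSeq, GRCm38.p6), is written 5′ to 3′ on the gene's strand, and has in capitals any match to the interferon-stimulated response element (ISRE: GAAA, any 2 bases, GAAA) or the gamma-activated site TTCNNNGAA (GAS), searched on both strands. The windows are Psmb8 at chr17:34197945-34198244 on the plus strand, Psmb9 at chr17:34187281-34187580 on the minus strand, and Psme1 at chr14:55578244-55578543 on the plus strand. Each of these windows lies inside the GENCODE span of its gene. The spans are chr17:34197721-34201454 for Psmb8, chr17:34181987-34187764 for Psmb9 and chr14:55578123-55581529 for Psme1. Positions are counted from the RefSeq start and not from the outer end of the span.
Psmb8: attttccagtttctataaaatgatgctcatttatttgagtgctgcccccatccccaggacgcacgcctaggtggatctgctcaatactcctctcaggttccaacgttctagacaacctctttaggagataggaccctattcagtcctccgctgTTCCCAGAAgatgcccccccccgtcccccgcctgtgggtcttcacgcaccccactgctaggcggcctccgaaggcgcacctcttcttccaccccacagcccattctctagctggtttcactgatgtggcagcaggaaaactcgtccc
Psmb9: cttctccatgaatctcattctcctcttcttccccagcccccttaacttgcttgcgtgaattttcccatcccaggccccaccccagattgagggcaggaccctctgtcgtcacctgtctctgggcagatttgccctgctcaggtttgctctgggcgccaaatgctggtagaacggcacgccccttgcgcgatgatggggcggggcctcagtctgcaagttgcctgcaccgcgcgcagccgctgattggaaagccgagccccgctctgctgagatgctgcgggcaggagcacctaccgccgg
Psme1: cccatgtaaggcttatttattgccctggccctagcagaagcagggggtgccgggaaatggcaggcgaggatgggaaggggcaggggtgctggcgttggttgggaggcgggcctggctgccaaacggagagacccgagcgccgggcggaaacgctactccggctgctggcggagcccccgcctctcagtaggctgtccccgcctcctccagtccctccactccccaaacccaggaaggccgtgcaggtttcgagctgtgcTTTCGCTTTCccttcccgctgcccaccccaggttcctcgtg
The Psmb8 window holds a GAS match that begins 97 bases before the RefSeq start, TTCCCAGAA. The Psme1 window holds an ISRE match that begins at base 9 after the start, TTTCGCTTTC, read on the opposite strand. The Psmb9 window holds neither, nor do those of Psmb10, Psme2 and Psmb5. A match is a stretch of letters and not a measured site, and the lack of one says only that these letters are not in this window.

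Windows were present for 40 of the 48 members; those without are Psma8, Psmb1, Psmb2, Psmb7, Psmc3, Psmd3, Psmd7 and Psmg2. The ISRE letters were in 5 of 40 genes (12.5%: Psmb3, Psmd4, Psmd9, Psme1 and Psmg4), and in 3.44% of the 32851 windows of all genes. The GAS letters were in 3 of 40 (7.5%: Psmb8, Psmd2 and Psmg1) and in 8.3% of all windows. The core of the antioxidant response element TGANNNNGC, bound by Nfe2l1, the factor known to raise proteasome genes when the proteasome is blocked, was in 22 of 40 (55.0%) and in 41.3% of all windows. The ETS family motif CCGGAAG, chosen after a first look at these windows, was in 14 of 40 (35.0%) and in 8.86% of all windows. By class, it was in 3 of 5 ATPase and 6 of 12 non-ATPase genes of the regulatory particle, in 2 of 3 assembly chaperones, 2 of 5 activators and 1 of 7 alpha genes, and in 0 of the 2 non-catalytic and 5 catalytic beta genes with a window and 0 of 1 for the inhibitor.

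The balance between inducible and constitutive catalytic genes did not separate the libraries by time. It was measured within each library as counts per kilobase of annotated exons, which does not depend on scaling between libraries. Psmb8, Psmb9 and Psmb10 made up 44.9%, 51.1%, 51.2% and 43.4% of the 6 catalytic genes in ZT1 replicates 1 to 4 and 45.5%, 48.1%, 44.2% and 49.3% in the ZT13 replicates. The ZT13 values all lay inside the ZT1 range, with means of 47.7% ± 4.12 and 46.8% ± 2.31. Reckoned over the principal transcript of each gene, the shares were 45.9% to 53.7% and 46.6% to 51.1%.

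The single pairs overlapped likewise. Psmb8 over Psmb5 was 0.822 ± 0.122 at ZT1 and 0.789 ± 0.0726 at ZT13, Psmb9 over Psmb6 was 0.517 ± 0.105 and 0.481 ± 0.0311, and Psmb10 over Psmb7 was 3.47 ± 0.482 and 3.598 ± 1.009. ZT1 replicates 2 and 3 had the highest ZT1 ratio in all 3 pairs. The ratios' size depends on the length taken for each gene, so they are compared between libraries and not between pairs. Within a library, the mean log2 CPM of the 5 inducible genes minus that of the 14 other core genes was 0.37 ± 0.18 at ZT1 and 0.35 ± 0.10 at ZT13, with overlapping libraries.

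Psmb8 and Psmb9 lie in the MHC class II region of chromosome 17, interleaved with the genes of the TAP transporter, which carries peptides into the endoplasmic reticulum. In GRCm38, Psmb9 (ENSMUSG00000096727.4) spans chr17:34181987-34187764 on the minus strand, and Tap1 (ENSMUSG00000037321.18) chr17:34187553-34197225, Psmb8 (ENSMUSG00000024338.16) chr17:34197721-34201454 and Tap2 (ENSMUSG00000024339.13) chr17:34203527-34216321 on the plus strand. Psmb9 and Tap1 are read outwards from a shared stretch: their promoter windows have 275 bases in common, 91.7% of each. Tap1 was at 114, 168, 192 and 116 CPM at ZT1 and 88.5, 118, 117 and 138 CPM at ZT13, so its mean was lower at ZT13 where that of Psmb9 was higher. Its log2 fold change was -0.35 ± 0.19, adjusted p 0.628. Tap2 was at 120, 136, 141 and 121 CPM and then 94.2, 114, 96.5 and 112 CPM, every ZT13 library below every ZT1 library, with -0.31 ± 0.10 and an adjusted p of 0.491.

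Count ratios of these neighbours within a library did not overlap between the times. Counts of Psmb9 per count of Tap1 were 0.553, 0.531, 0.620 and 0.569 at ZT1 and 1.05, 0.845, 0.815 and 0.684 at ZT13. Counts of Psmb8 per count of Tap1 were 0.682 to 0.843 at ZT1 and 1.05 to 1.35 at ZT13, and per count of Tap2 0.725 to 1.15 and 1.20 to 1.457. Psmb9 per Psmb8 overlapped, at 0.728 to 0.779 and 0.652 to 0.775. These ratios were chosen after their values were seen and have no test. Transcript length differs within them: the principal transcripts are 1352 bases for Psmb9 and 1628 for Psmb8, against 2953 for Tap1 and 3442 for Tap2. Other short and long genes parted without overlap too. Deviations from the mean of all 8 libraries were taken for 1717 genes up to 1500 bases and 5287 genes above 3000 bases. The median of the short minus that of the long genes was -0.39 to 0.10 (log2) at ZT1 and 0.14 to 0.23 at ZT13. The part of length in the ratios was not tested. The exons of Psmb9 also share 212 bases (5.79%) with Tap1 on the opposite strand, those of Psmb8 share 498 bases (14.7%) with the antisense gene Gm20496, and the sources used here do not say whether counting used strand.

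**Figure D3:**
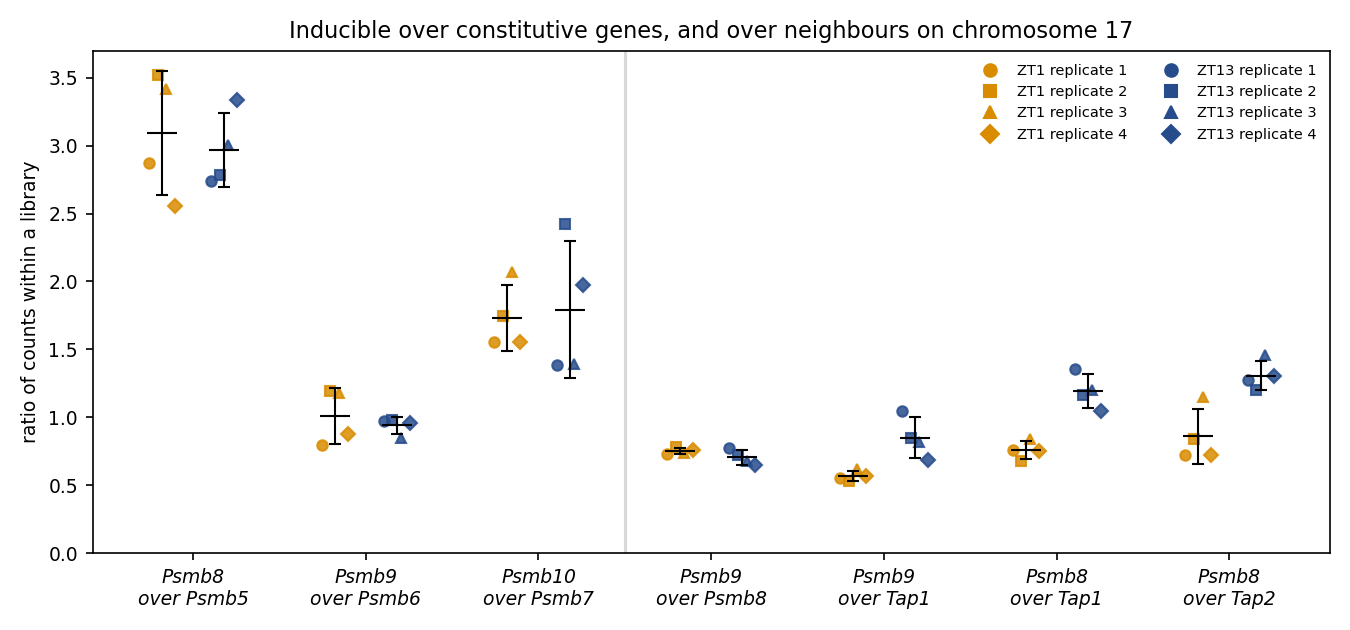
Ratio of counts within each library (y axis, from 0) for inducible genes over their constitutive counterparts (left of the line) and for pairs of neighbours on chromosome 17 (right of it); points are libraries, bars the mean and SD of each group. The groups overlap for the first 3 pairs and for Psmb9 over Psmb8, and do not overlap for the ratios to Tap1 and Tap2, such as 0.531 to 0.620 at ZT1 and 0.684 to 1.05 at ZT13 for Psmb9 over Tap1.

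The regulatory particle had smaller fold changes than the core. Over its 20 genes the median log2 fold change stood at 0.11, with 17 positive and 3 negative. At an unadjusted p under 0.05, 2 were higher (4.35% of all genes) and 1 lower (4.85%). For the 14 core genes outside the immunoproteasome the median was 0.32, with 14 positive and 8 higher at that p (4.35%). The mean log2 CPM of the 20 regulatory genes was 6.14, 6.12, 6.12 and 6.06 at ZT1 and 6.22, 6.21, 6.16 and 6.30 at ZT13, so every ZT13 library lay above every ZT1 library. That of the 14 core genes was 5.94, 6.07, 6.40 and 5.92, then 6.41, 6.40, 6.38 and 6.43, where ZT1 replicate 3 overlapped. The difference between core and regulatory particle within a library was -0.03 ± 0.22 at ZT1 and 0.18 ± 0.04 at ZT13, and overlapped.

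The ATPases form the ring that unfolds substrates, and their median was 0.10. Psmc5 was at 60.1, 55.6, 58.8 and 51.4 CPM at ZT1 and 57.3, 73.8, 67.2 and 82.4 CPM at ZT13, with one ZT13 library inside the ZT1 range. Its log2 fold change was 0.31 ± 0.13, adjusted p 0.519. Psmc3 was at 119, 113, 109 and 105 CPM, then 118, 116, 153 and 121 CPM, where ZT13 replicate 3 stood apart, with 0.19 ± 0.11 and an adjusted p of 0.657. Psmc2 had the smallest value, 0.03 ± 0.09.

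Among the non-ATPases, Psmd2 and Psmd9 had the smallest p and opposite signs. Psmd2, the scaffold that receives ubiquitin shuttle factors, stood at 242, 220, 207 and 242 CPM at ZT1 and 213, 201, 160 and 195 CPM at ZT13. ZT13 replicate 1 lay inside the ZT1 range and the other ZT13 libraries below it, and the log2 fold change was -0.24 ± 0.11, adjusted p 0.532. Psmd9, a chaperone of ATPase ring assembly that is not part of the finished particle, stood at 10.3, 13.9, 14.2 and 11.3 CPM, then 21.6, 23.9, 13.5 and 14.04 CPM. Its higher mean came from ZT13 replicates 1 and 2, and its log2 fold change was 0.56 ± 0.23, adjusted p 0.520. Of the exon bases of Psmd9, 25.5% are shared with the lincRNA Gm26745 on the opposite strand, so its reads are uncertain. Psmd5, also a chaperone of that ring, had -0.17 ± 0.15, and Psmd10, the third of them here, 0.31 ± 0.18. Without these chaperones, the 11 structural Psmd genes had a median of 0.12. Psmd4, a ubiquitin receptor, had 0.18 ± 0.11, and Psmd14, the enzyme that removes ubiquitin chains, 0.11 ± 0.12.

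The other activators and the inhibitor gave smaller or negative values. Psme3 encodes the nuclear activator PA28 gamma, and it was at 123, 114, 117 and 135 CPM at ZT1 and 108, 101, 128 and 98.6 CPM at ZT13. The log2 fold change of Psme3 was -0.17 ± 0.11, adjusted p 0.701, and ZT13 replicate 3 lay inside the ZT1 range. Psme4, the large activator PA200, was at 29.8, 26.4, 31.3 and 29.8 CPM, then 32.8, 32.7, 33.0 and 31.6 CPM. All ZT13 libraries lay above all ZT1 libraries, by a small margin, with 0.15 ± 0.12 and an adjusted p of 0.773. Psmf1, the inhibitor PI31, was at 16.8, 18.7, 20.2 and 20.2 CPM, then 22.8, 24.0, 18.6 and 18.01 CPM, with 0.14 ± 0.16 and 0.855. Psme2b, a close copy of Psme2, stayed at 2.90 to 4.37 CPM over all libraries; reads of the copies may have been assigned to one another, so its log2 fold change of -0.06 ± 0.31 is uncertain.

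The assembly chaperones Psmg1 to Psmg4 help build the alpha ring and leave the finished core. Psmg1 was at 5.55, 5.09, 6.11 and 4.31 CPM at ZT1 and 4.55, 6.27, 7.62 and 8.74 CPM at ZT13. Psmg4 was at 4.14, 4.42, 5.54 and 3.17 CPM, then 3.98, 6.38, 5.73 and 6.18 CPM. In each, ZT13 replicate 1 was the lowest ZT13 library and lay inside the ZT1 range. Log2 fold changes were 0.37 ± 0.28 and 0.37 ± 0.29, with adjusted p of 0.760 and 0.782, and the class median was 0.31.

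ZT1 replicate 3 set much of the spread. It was the highest ZT1 library for 14 of 14 core genes outside the immunoproteasome, for 5 of 5 inducible genes and for 29 of 47 members, but for 5 of 20 genes of the regulatory particle. Relative to the mean of all 8 libraries, the inducible genes stood at -0.43, -0.08, 0.38 and -0.48 (log2) in the ZT1 libraries and at 0.02, 0.25, 0.10 and 0.23 in the ZT13 libraries. The core genes stood at -0.31, -0.18, 0.16 and -0.32, then 0.16, 0.16, 0.14 and 0.19. The regulatory particle stayed between -0.10 and 0.14 in all libraries. Monocyte and dendritic cell markers summed to 1403, 1679, 2049 and 1388 CPM in ZT1 replicates 1 to 4 and 1888, 2133, 1595 and 1714 at ZT13; neutrophil markers summed to 138600, 167200, 176700 and 137100 CPM, then 180300, 184100, 229200 and 206700. Microglia and macrophage markers summed to 410.5, 458.9, 765.6 and 478.2 CPM, then 697.2, 726.6, 336.0 and 361.7. All 3 sums were thus highest in replicate 3 among the ZT1 libraries, that of microglia and macrophages also over all 8 libraries, and the part of any of them in the proteasome values was not tested.

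**Figure D4:**
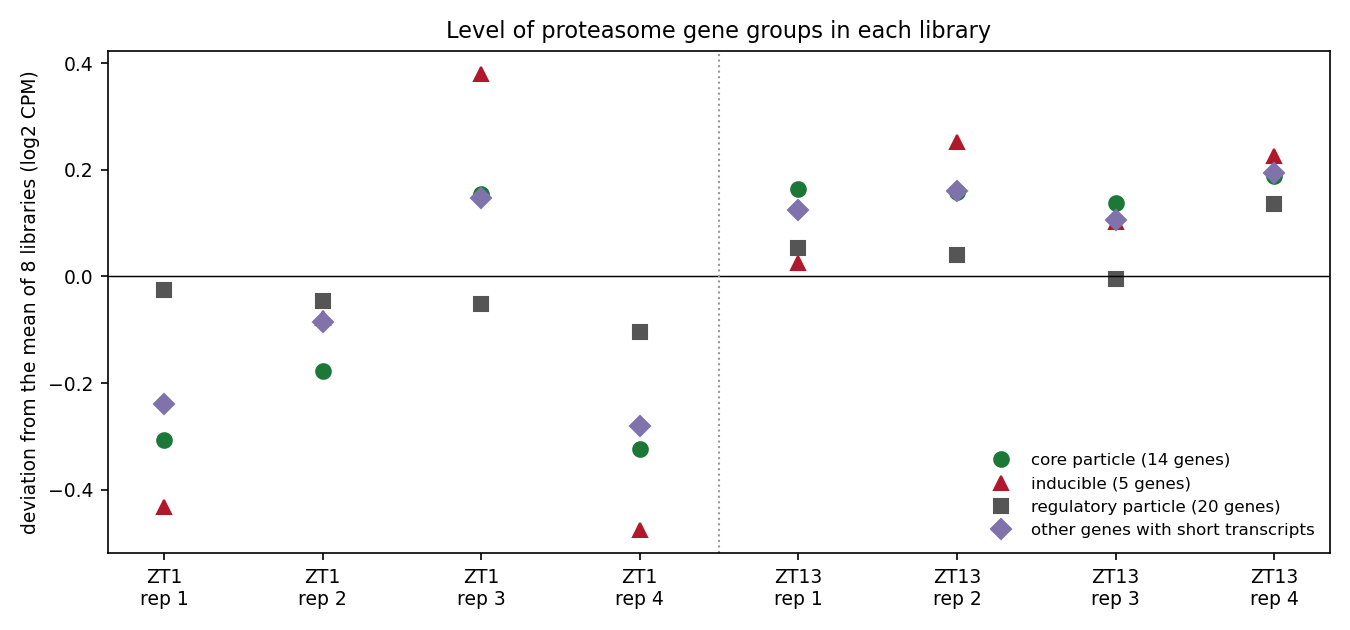
Mean log2 CPM of the core, inducible and regulatory particle genes in each of the 8 libraries, as a deviation from the mean over all libraries (y axis), with the median deviation of 1717 other protein-coding genes of short transcript for comparison. The inducible genes span -0.48 to 0.38, the core genes -0.32 to 0.19 and the regulatory particle -0.10 to 0.14, and the short genes lie close to the core genes.

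Most core genes have short transcripts, and short transcripts as a class moved with the libraries. Over 1717 protein-coding genes that are no members and have a principal transcript of at most 1500 bases, the median deviation was -0.24, -0.08, 0.15 and -0.28 (log2) in the ZT1 libraries and 0.13, 0.16, 0.11 and 0.19 in the ZT13 libraries. That order is close to the order of the core genes. In 5287 genes above 3000 bases the median deviation was 0.05 to 0.13 at ZT1 and -0.08 to 0.00 at ZT13.

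Set beside genes of like length, the members' median lay slightly below that of all genes in the shortest class and above it in the others. Up to 1000 bases, the 9 members (among them Psma7, Psmb2, Psmb3, Psmb5, Psmb6 and Psme2) had a median of 0.35 (log2 fold change) and all 675 genes 0.37. Between 1000 and 1500 bases, the 16 members had 0.24 and all 1067 genes 0.19. The members stood above their class in longer transcripts: 0.17 for 10 members and 0.01 for 1287 genes between 1500 and 2000 bases, 0.11 for 8 members and -0.07 for 2519 genes between 2000 and 3000 bases, and 0.04 for 4 members and -0.10 for 5291 genes above. The longer classes hold most genes of the regulatory particle. They also hold core genes: the principal transcripts are 2911 bases for Psma2, 2846 for Psma3 and 1758 for Psmb1, whose log2 fold changes were 0.33, 0.21 and 0.42. The part of length in the values of each gene was not tested.

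**Figure D5:**
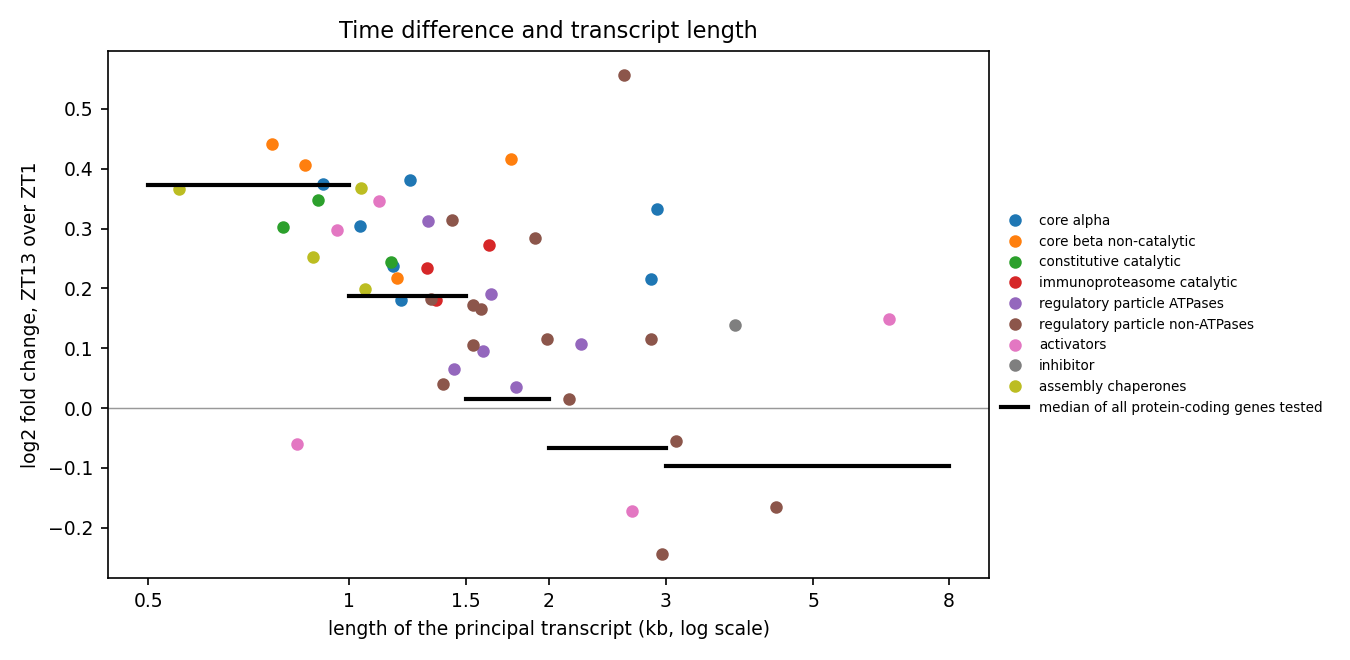
Log2 fold change of ZT13 over ZT1 (y axis) of the proteasome genes against the length of the principal transcript in kb (log x axis), coloured by class; black bars are the medians of all tested protein-coding genes in 5 length classes. The medians go from 0.37 up to 1 kb to -0.10 above 3 kb, and the members of the first class lie on both sides of its median.

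Levels of different subunits were compared per length. In CPM per kilobase of annotated exons, alpha genes ran from Psma3 (12.8 at ZT1, 14.9 at ZT13) to Psma6 (61.7 and 76.2), Psma8 aside. Beta genes ran from Psmb7 (8.50 and 10.1) to Psmb2 (73.2 and 97.0), and within the immunoproteasome from Psmb9 (23.0 and 26.1) to Psmb8 (33.3 and 40.2). The ATPases ran from Psmc6 (16.9 and 18.2) to Psmc1 (53.3 and 56.9), the non-ATPases from Psmd9 (1.71 and 2.52) to Psmd2 (56.4 and 47.6), and the activators from Psme4 (3.50 and 3.88) to Psme2 (64.4 and 79.2). Psmf1 was at 2.94 and 3.24, and the assembly chaperones ran from Psmg3 (1.73 and 2.06) to Psmg4 (7.78 and 10.03). The chaperones, the inhibitor and Psme4 thus lay below most structural subunits at both times. The order within the core depends on the length used: per kilobase of the principal transcript, Psma7 was the highest member, at 162 and 210.

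A list of partners that the rule by symbol does not take holds ubiquitin genes, shuttle factors, ligases and assembly factors, and also Sem1 and Adrm1, which are subunits of the regulatory particle. Of it, 28 genes were in the table and tested; Paaf1 was not analysed here. Among them 10 had positive and 18 negative log2 fold changes, where 47.7% of all genes were positive, with a median of -0.04. At an unadjusted p under 0.05, 3 were higher (4.35% of all genes) and 1 lower (4.85%), and 0 passed the adjusted threshold. Ubb, one of the genes that supply ubiquitin itself, had the highest CPM of the list. It stood at 752, 976, 945 and 916 CPM at ZT1 and 1049, 1148, 1260 and 1248 CPM at ZT13, without overlap. The log2 fold change of Ubb was 0.39 ± 0.10, adjusted p 0.396. The genes next in order of p work at the complex: Pomp, the chaperone of beta ring assembly, had 0.42 ± 0.16 (adjusted p 0.497), Ube3c, a ubiquitin ligase bound to the proteasome, -0.67 ± 0.26 (0.501), and Sem1, the small lid subunit, 0.48 ± 0.19 (0.507). Nfe2l1 was at 52.3 ± 4.68 CPM at ZT1 and 51.9 ± 14.8 at ZT13.

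Genes of MHC class I peptide loading and of interferon signalling gave few positive values. Of 20 tested, 4 had positive and 16 negative log2 fold changes, where 47.7% of all genes were positive. At an unadjusted p under 0.05, 0 were higher (4.35% of all genes) and 1, Tap2, was lower (4.85%), a share near that of all genes, and 0 passed the adjusted threshold. The median was -0.12, beside -0.02 for all genes and -0.10 for those above 3000 bases. The lengths of the listed genes were not set against that class, and the part of length in their values was not tested. B2m, the light chain of class I molecules and the gene of highest CPM in the list, was at 763, 1216, 1512 and 846 CPM at ZT1 and 1339, 1595, 1298 and 1344 CPM at ZT13, with 0.36 ± 0.20 and an adjusted p of 0.627. Like Psmb8 and Psmb9, it was lowest in ZT1 replicates 1 and 4. Tapbp, which bridges TAP and class I molecules, had -0.18 ± 0.09 (adjusted p 0.579), and Tpp2, a peptidase that trims proteasome products, -0.31 ± 0.16 (0.614). Irf1, an interferon-induced factor known to act on Psmb8 to Psmb10, was at 107, 211, 262 and 102 CPM at ZT1 and 122, 132, 130 and 143 CPM at ZT13, again lowest in ZT1 replicates 1 and 4 and highest in ZT1 replicate 3.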

How the data were processed

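RNA from sorted spinal cord neutrophils of 8 mice, 4 at ZT1 and 4 at ZT13, was measured by RNA-seq with single 50-base reads. The deposited values are whole-number read counts per Ensembl gene, made by the authors; the submitters' processing notes name FastQC, STAR 2.7.10b, featureCounts, Subread 2.0.3, DESeq2 1.46.0 and GRCm38. The sources used here do not give their settings, strand and multimapping included.

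Identifiers were matched to GENCODE M21 (22222 of 23369; the other 1147 hold 0.125% of counts and stayed in the test). The test on the counts was run in R 4.3.3 with edgeR 4.0.16, after filterByExpr with a minimum count of 10 and a total of 15; it used TMM factors, the robust quasi-likelihood F-test, groups only, Benjamini-Hochberg adjustment over all genes tested and a threshold of 0.05. CPM use TMM-scaled library sizes. The fits were also run on simulated counts for genes of all levels. There edgeR recovered on average 29.5% of 2-fold and 65.5% of 4-fold changes, with 2.5 and 5 false calls. DESeq2 recovered 45.5% and 74%, with 46 and 45.5 false calls. These shares are for genes of all levels and were not worked out for the proteasome genes alone. The members' median SE was 0.1375, and the intervals of 45 of the 47 excluded a 2-fold difference in either direction. The lack of a call thus does not show the lack of a difference, but for those 45 members it leaves only differences under 2-fold. Lengths are merged exons, the longest transcript or the principal (APPRIS) transcript; the last was chosen after seeing the data. Mice at ZT1 and ZT13 are taken as separate animals, since cells were sorted per mouse.

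Alternatives were DESeq2 1.42.0, limma 3.58.1 (voom), other scalings and filters, the replicate number as a block and leaving out each library. Values in every library are printed for Psmb5 to Psmb10, Psme1, Psme2 and the 2 genes of smallest p in each class; in the lists the 4 genes of smallest p and the one of highest CPM could be named. Nfe2l1, Irf1, Tap1, Csf3r and the ETS motif were added after their values were seen. Members and lists were chosen with earlier results of these data known.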

Additional observations from a re-analysis of the deposited data

Results flagged for a closer look

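Among the 102 groups of 4 libraries checked for one library far from the other 3, 4 had such a library, where chance gives about 1 in 20. Psma4, an alpha ring subunit, was at 53.4 CPM in ZT1 replicate 3 and at 42.2 to 43.6 CPM in the other ZT1 libraries. Psma5, of the same ring, was at 36.9 CPM in ZT1 replicate 3 and at 26.6 to 27.2 CPM in the others. The ATPase gene Psmc3 was at 153 CPM in ZT13 replicate 3 and at 116 to 121 CPM in the other ZT13 libraries. The ratio of Psmb9 to Psmb6 in counts per kilobase was 0.435 in ZT13 replicate 3 and 0.491 to 0.502 in the others.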

How the results depend on the processing

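In every alternative run, 0 proteasome genes passed the adjusted threshold. Over all genes DESeq2 called 118, and 256 on the whole table (added after seeing the data), where edgeR called 0; 40 of 47 members kept their sign in all 16 alternatives. The count of 11 members higher at an unadjusted p under 0.05 was 7 with library totals, where 3.32% of all genes were higher. It was 4 to 20 when a library was left out (2.23% to 6.18% of all genes). The sources used here do not say whether the replicate numbers of the titles mark a shared cage, day or sort. Same-numbered deviations correlated between -0.0399 and 0.0196, and 0 ZT1 libraries correlated best with their own number. With 4 libraries per group, these correlations cannot show whether mice were paired. The library names number some ZT13 libraries differently, and that numbering was not used. With the title numbers as a replicate block the count was 7 (3.28% of all genes), with 41 members positive. The medians with library totals were 0.036 for the ATPases and 0.052 for the regulatory particle, beside -0.078 for all genes. Leaving out a library gave the regulatory particle 0.058 to 0.138.

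Signs turned for members near 0. With library totals Psmc2 was at -0.030, Psmd3 at -0.048 and Psmd6 at -0.020; Psmd3 was at -0.0077 with no filter, -0.012 by limma-voom and -0.0026 with the block. When a library was left out, Psmc2 ran from -0.011 to 0.065, Psmc4 from -0.0076 to 0.149, Psmd1 from -0.191 to 0.038, Psmd3 from -0.105 to 0.135, Psmd6 from -0.056 to 0.089, Psmd13 from -0.0035 to 0.172 and Psme2b from -0.194 to 0.026. The median log2 fold change of all genes moved between these settings too. It was -0.019 in the main fit and -0.078 with library totals. With no filter it was -0.081, by limma-voom -0.075 and with the block -0.068. The cause of the turned signs was not tested.

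By construction, ratios and levels move with the length used. In counts, Psmb8 over Psmb5 was 3.09 at ZT1 and 2.97 at ZT13, Psmb9 over Psmb6 1.01 and 0.941, Psmb10 over Psmb7 1.73 and 1.79, and the immunoproteasome share 62.0% and 61.5%. Per principal transcript the ratios were 1.71 and 1.64, 0.596 and 0.555, and 1.53 and 1.59. The median level per kilobase was 54.5 with the longest and 57.6 with the principal transcript for the core (40.4 with merged exons), 37.1 and 44.7 for the regulatory particle (25.1), and 59.9 and 76.2 for the inducible genes (36.7). Depth limits Psma8, with 0 reads in 4 of 8 libraries.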
